A study of Drosophila melanogaster with 36 samples.

Results

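The cluster of miR-277, miR-34 and miR-317 in Drosophila melanogaster comprises 3 hairpins on the plus strand of chromosome 3R whose abundant products are dme-miR-277-3p, dme-miR-34-5p and dme-miR-317-3p. These 3 miRNAs were chosen because they are taken to come from a single primary transcript. How they moved was not the rule, but earlier results of these data were known. They are 3 of the 310 fly miRNA entries counted in S2 cells. The other arm of each hairpin, dme-miR-277-5p, dme-miR-34-3p and dme-miR-317-5p, was counted as well and is described beside its partner. In S2 cells lacking Dora, dme-miR-277-3p rose 3.27-fold in total small RNA and dme-miR-34-5p rose 1.71-fold, whereas dme-miR-317-3p differed by 1.08-fold, within the spread between lines.

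A miRNA hairpin is cut from a primary transcript, and usually one of its arms is kept in an Argonaute protein while the other is discarded. Flies have Ago1, which holds most miRNAs, and Ago2, which holds siRNAs and those miRNAs whose duplexes pair more fully; Hen1 adds a methyl group to the 3′ end of small RNAs in Ago2 and so protects them from oxidation by periodate. Some target RNAs pair so extensively with a miRNA that the miRNA itself is destroyed (target-directed miRNA degradation), a process that requires Dora, the fly counterpart of the ZSWIM8 ubiquitin ligase adaptor, which acts on the Argonaute protein. In flies, miR-277 is known for restraining genes of branched-chain amino acid catabolism and was an early example of a miRNA sorted to Ago2, miR-34 is known for its part in the ageing brain and for trimming of its 3′ end by Nibbler, and miR-317 has been linked to immune signalling.

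The mature sequences are shown because the 3 miRNAs share no seed, so that each would pair with its own targets. They were read from the RefSeq annotation of the Release 6 genome (dm6) at chr3R:10100080-10100102, chr3R:10100952-10100975 and chr3R:10091181-10091204, in the order of the lines, and capitals mark the seed, bases 2 to 8.
dme-miR-277-3p: uAAAUGCAcuaucugguacgaca
dme-miR-34-5p: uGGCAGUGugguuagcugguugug
dme-miR-317-3p: uGAACACAgcuggugguauccagu
Among the 485 mature arms annotated by RefSeq, no other arm had the seed of dme-miR-277-3p or dme-miR-34-5p, and 1 other arm, of mir-4943, had that of dme-miR-317-3p. An unshared seed was common, held by 393 of the 485 arms. The first 19 nucleotides, by which the authors counted reads, were found in no other annotated arm for any of the 3, so their reads could be told apart from those of every other annotated miRNA.

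The whole hairpins are shown because the arms of a hairpin are made together and are compared below; capitals mark the 2 mature arms.
mir-317: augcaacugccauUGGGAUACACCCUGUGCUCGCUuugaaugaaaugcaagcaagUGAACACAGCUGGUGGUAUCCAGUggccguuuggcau
mir-277: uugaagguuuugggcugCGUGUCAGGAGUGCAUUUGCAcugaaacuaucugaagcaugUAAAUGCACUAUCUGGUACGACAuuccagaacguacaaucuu
mir-34: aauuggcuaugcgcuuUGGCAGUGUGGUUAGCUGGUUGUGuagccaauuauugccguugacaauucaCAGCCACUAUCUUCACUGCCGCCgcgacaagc
They lie at chr3R:10091126-10091217, chr3R:10100022-10100121 and chr3R:10100936-10101034. The mir-277 and mir-34 hairpins are 814 nucleotides apart, within an exon of the annotated noncoding gene lncRNA:CR43459 (chr3R:10093761-10101356). The mir-317 hairpin lies 8804 nucleotides before mir-277 and 2543 nucleotides before that gene starts. The annotation used here thus places mir-277 and mir-34 in a common transcript, the longest of that gene, but does not extend that transcript to mir-317. Shorter annotated transcripts of the gene end at chr3R:10100302, before mir-34, and at chr3R:10094625, before mir-277 and mir-34.

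Small RNAs of clonal S2 lines, a cultured cell line of fly embryonic origin, were counted in 30 libraries of 10 groups, 3 libraries a group. Wild-type (WT) lines and lines with a disrupted dora gene gave total small RNA (total-sRNA), small RNA that resisted periodate (treated), and small RNA recovered with Ago1 (Ago1-IP). Lines disrupted in hen1, and lines disrupted in hen1 and dora, gave total-sRNA and small RNA recovered with transfected FLAG-tagged Ago2 (Ago2-IP), so that no Ago2-IP was made from cells with Hen1. Each line was 1 clone, edited with CRISPR where a gene was disrupted, and the Ago1-IP used a tagged fragment of TNRC6B, a protein that binds Ago1, rather than an antibody to Ago1. The total-sRNA libraries of WT and dora lines came from an earlier study, whereas those of the hen1 backgrounds were made separately.

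Treated and Ago2-IP libraries were shallow, with 265759 to 671057 miRNA reads each, and all others had between 1515851 and 11522776. In treated dora line 1 size markers and added standards made up 66.3% of the counted reads, against 0.224% to 0.500% in the other treated libraries. Levels are given as reads per 1000000 miRNA reads (RPM), a relative measure in which more of a miRNA and less of the others cannot be told apart. The tables hold neither dora nor hen1 transcripts nor a marker of S2 cells, so genotypes rest on the labels. The 3 miRNAs were well covered, with at least 435 reads in every library, and all 3 and their other arms passed the filter on low and variable values in every comparison.

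In WT total-sRNA, dme-miR-34-5p and dme-miR-317-3p were alike in level and dme-miR-277-3p was lower. dme-miR-317-3p had 26525, 26159 and 29083 RPM in WT lines 1, 2 and 3 (27256 ± 1593, SD, n = 3), and dme-miR-34-5p had 27090, 25479 and 28011 RPM (26860 ± 1282). dme-miR-277-3p had 8977, 8543 and 10754 RPM (9425 ± 1171), below both other miRNAs in every line. Together they took 6.35% ± 0.39 of the miRNA reads, and dme-miR-277-3p ranked 17 to 19 among the miRNAs of a library where the others ranked 7 to 9.

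Across the 10 groups the 3 miRNAs ran in different orders (plot of level by library). dme-miR-317-3p was highest in Ago1-IP from dora lines (40798 ± 2238 RPM) and from WT lines (36556 ± 2931 RPM), whose ranges overlapped, and lowest in treated libraries of WT lines (1792 ± 838 RPM) and of dora lines (1431 ± 179 RPM), whose ranges overlapped as well. dme-miR-34-5p was highest in total-sRNA of dora lines (40252 ± 5446 RPM), overlapping Ago1-IP of dora lines (36464 ± 874 RPM), and lowest in treated libraries (6470 ± 862 RPM in WT lines and 7950 ± 2296 RPM in dora lines). dme-miR-277-3p went the other way: it was highest in treated libraries of WT lines (36726 ± 5311 RPM) and dora lines (36175 ± 7140 RPM), and lowest in Ago1-IP of WT lines (3588 ± 383 RPM), which overlapped total-sRNA of hen1 lines (5305 ± 1540 RPM). Of the reads of the 3 miRNAs together, dme-miR-277-3p took 81.5% ± 3.9 in treated WT libraries, 14.8% ± 0.9 in WT total-sRNA and 6.16% ± 1.05 in WT Ago1-IP.

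**Figure D1:**
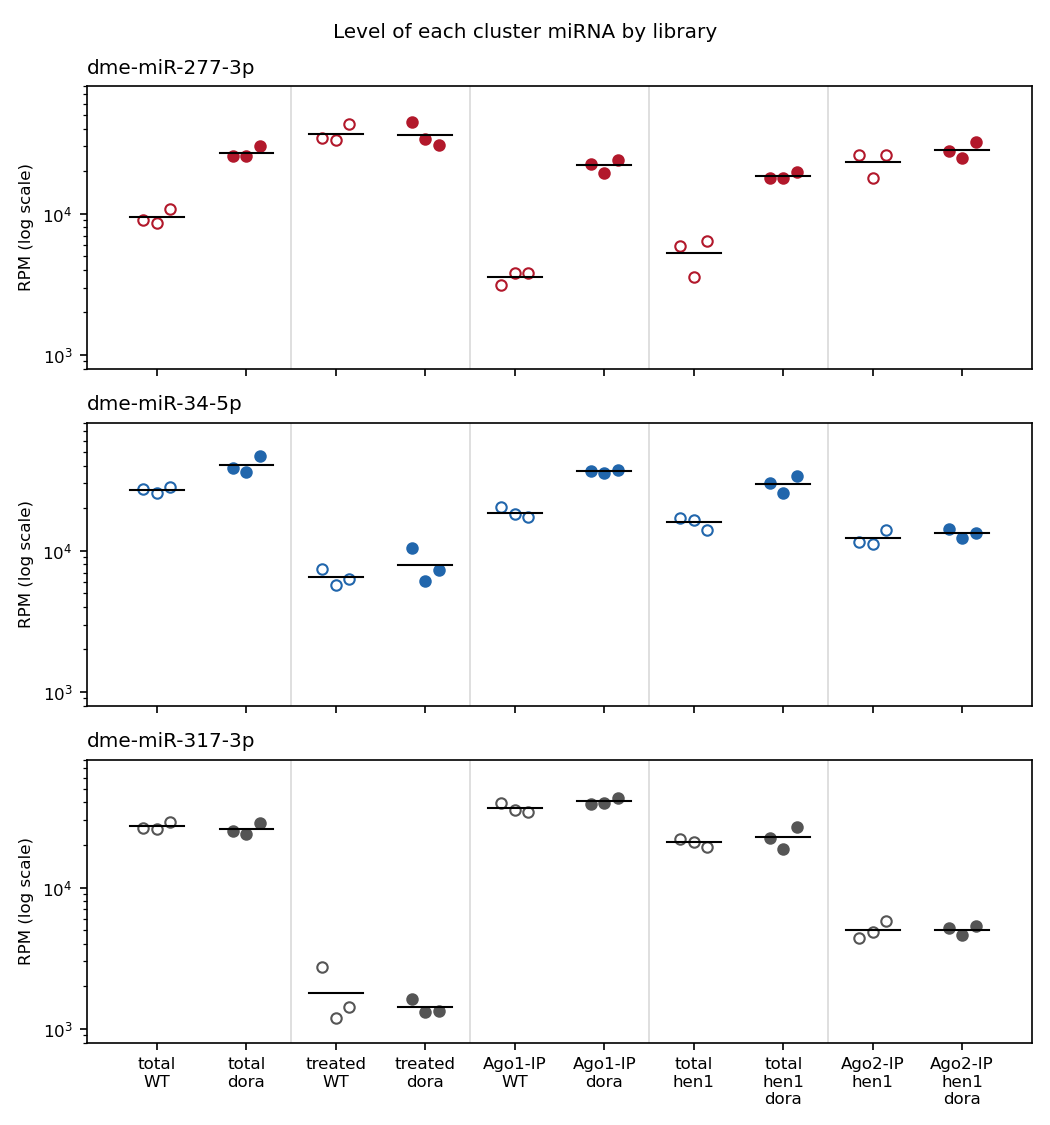
Level of dme-miR-277-3p, dme-miR-34-5p and dme-miR-317-3p in each of 30 libraries, in RPM on a log axis; points are libraries, open where Dora is present and filled where it is lost, and bars are group means (n = 3). Filled points of dme-miR-277-3p and dme-miR-34-5p sit above the open points in total-sRNA, Ago1-IP and total-sRNA without Hen1, and overlap them in treated and Ago2-IP libraries, whereas those of dme-miR-317-3p overlap in all 5 pairs of groups.

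To ask how the 3 miRNAs were divided between Ago1 and Ago2, each enriched library was compared with total-sRNA of the same genotype with edgeR's quasi-likelihood test and Benjamini-Hochberg adjustment over all miRNAs tested, as for every adjusted p given here; a miRNA was called at an adjusted p under 0.05. Since WT total-sRNA came from an earlier study, kind of library and study cannot be told apart in the treated and Ago1-IP comparisons. dme-miR-277-3p was the member enriched after periodate and in Ago2-IP. In WT lines it had 34414, 32963 and 42801 RPM after periodate, all above its levels in untreated libraries, 3.90-fold higher (log2 1.96 ± 0.18, SE, adjusted p = 1.71e-05). dme-miR-34-5p had 7400, 5698 and 6311 RPM after periodate, 4.15-fold lower than untreated (log2 -2.05 ± 0.16, adjusted p = 9.27e-06). dme-miR-317-3p had 2750, 1193 and 1432 RPM, 15.2-fold lower (log2 -3.93 ± 0.34, adjusted p = 1.26e-05), the third lowest ratio among the 95 miRNAs tested. The treated libraries thus separated the 3 miRNAs in the order dme-miR-277-3p, dme-miR-34-5p, dme-miR-317-3p without overlap. The background was broad, with 45.3% of the miRNAs tested higher and 37.9% lower after periodate. TMM scaling (trimmed mean of M-values) shifted the median of all miRNAs by -0.71 on the log2 scale and the split from 43 higher and 36 lower to 37 and 44, and left each of the 3 called in its direction (log2 1.25, -2.76 and -4.61).

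The Ago1-IP gave the reverse order. dme-miR-317-3p had 39856, 35553 and 34258 RPM in WT Ago1-IP, 1.34-fold above total-sRNA (log2 0.42 ± 0.10, adjusted p = 0.00564). dme-miR-34-5p had 20410, 18203 and 17163 RPM, 1.44-fold below (log2 -0.53 ± 0.10, adjusted p = 0.00223), a call that was lost with TMM scaling (log2 -0.19, adjusted p = 0.25). dme-miR-277-3p had 3145, 3812 and 3807 RPM, 2.63-fold below (log2 -1.39 ± 0.14, adjusted p = 5.3e-05). Here 18.6% of the miRNAs tested were higher and 45.4% lower than in total-sRNA, and TMM scaling shifted the median by 0.35 and the split from 18 and 44 to 35 and 39.

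The Ago2-IP from hen1 lines, in which small RNAs in Ago2 lack the methyl group, placed them as periodate did. dme-miR-277-3p had 25839, 17734 and 26190 RPM, 4.38-fold above total-sRNA of hen1 lines (log2 2.13 ± 0.24, adjusted p = 9.39e-06). dme-miR-34-5p had 11560, 11142 and 13964 RPM, 1.29-fold below (log2 -0.37 ± 0.13, adjusted p = 0.0217), with a highest Ago2-IP library just above the lowest total-sRNA library. dme-miR-317-3p had 4406, 4816 and 5814 RPM, 4.16-fold below (log2 -2.06 ± 0.14, adjusted p = 1.52e-07). Of the miRNAs tested 56.7% were higher and 31.1% lower, and TMM scaling shifted the median by -1.38, so that 35 were higher and 42 lower in place of 51 and 28. The call of dme-miR-34-5p was lost when any of 4 libraries was left out (log2 -0.34 to -0.31, adjusted p = 0.0625 to 0.0754), namely total-sRNA of hen1 line 1 or 2 or either of 2 Ago2-IP libraries, whereas with TMM scaling its decrease was larger (log2 -1.76, adjusted p = 1.41e-06). With TMM scaling dme-miR-277-3p stayed higher (log2 0.74) and dme-miR-317-3p lower (log2 -3.44).

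The arms of a hairpin were not always sorted alike. dme-miR-317-5p, the minor partner of an Ago1-bound arm, was 8.71-fold lower in Ago1-IP than in WT total-sRNA (log2 -3.12 ± 0.15, adjusted p = 1.15e-06) and 8.13-fold higher in Ago2-IP than in total-sRNA of hen1 lines (log2 3.02 ± 0.21, adjusted p = 2.72e-07, and log2 1.64 with TMM scaling). After periodate it was not higher: it gave log2 -0.36 ± 0.20 (adjusted p = 0.13), and was called as lower with TMM scaling (log2 -1.08, adjusted p = 0.00139) and with DESeq2 (log2 -0.74, adjusted p = 0.012). Its partner dme-miR-317-3p took 99.9% ± 0.0 of the hairpin's reads in WT Ago1-IP, 98.4% ± 0.1 in WT total-sRNA, 82.6% ± 4.6 after periodate and 72.7% ± 2.9 in Ago2-IP of hen1 lines. dme-miR-277-5p was 3.01-fold lower after periodate (log2 -1.59 ± 0.24, adjusted p = 0.000385), opposite to dme-miR-277-3p. Like dme-miR-277-3p, it was lower in Ago1-IP than in WT total-sRNA, by 1.64-fold (log2 -0.72 ± 0.16, adjusted p = 0.00522). Its 1.81-fold higher level in Ago2-IP did not pass the test (log2 0.86 ± 0.38, adjusted p = 0.0557) and turned negative with TMM scaling (log2 -0.55) and with DESeq2 (log2 -0.31). It passed without a filter on low values (log2 0.86, adjusted p = 0.0388) and without Ago2-IP library b (log2 1.11, adjusted p = 0.0261). dme-miR-34-3p fell with its partner in all 3 comparisons, 8.90-fold after periodate, 1.42-fold in Ago1-IP and 1.38-fold in Ago2-IP (adjusted p = 7.83e-05, 0.00505 and 0.0318), although TMM scaling ended the call in Ago1-IP (log2 -0.16, adjusted p = 0.312) and leaving out any of 5 libraries ended that in Ago2-IP (adjusted p = 0.0594 to 0.122).

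**Figure D2:**
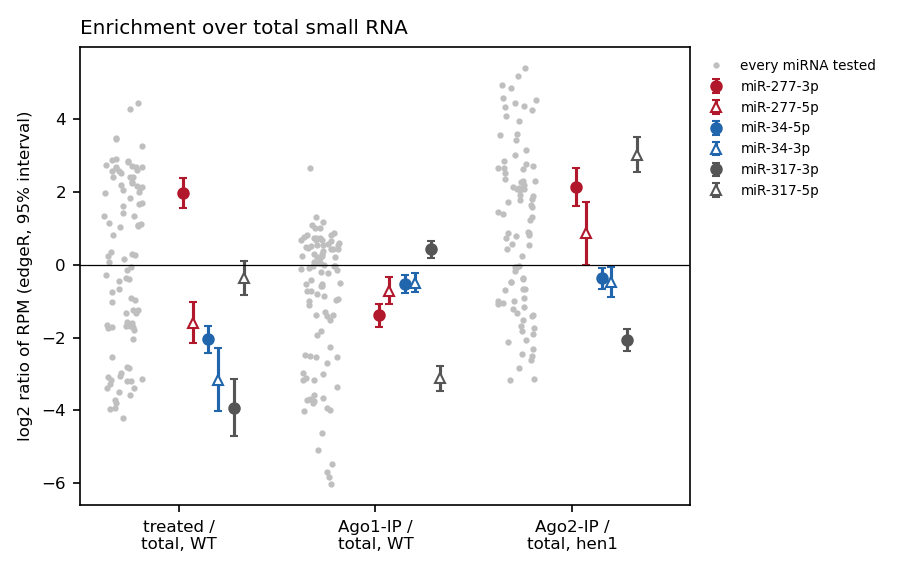
Log2 ratio of each arm of the 3 hairpins in treated WT, Ago1-IP WT and Ago2-IP hen1 libraries to total-sRNA of the same genotype, fitted by edgeR with 95% intervals (n = 3 against 3), with every miRNA tested as grey points. Red is mir-277, blue mir-34 and grey mir-317; circles are the abundant arms and triangles the other arms. dme-miR-277-3p lies above 0 after periodate (1.96) and in Ago2-IP (2.13), dme-miR-317-3p lies above 0 in Ago1-IP (0.42) only, and dme-miR-317-5p lies opposite to dme-miR-317-3p in Ago1-IP and Ago2-IP.

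Upon loss of Dora, dme-miR-277-3p and dme-miR-34-5p rose in total-sRNA and in Ago1-IP, and dme-miR-317-3p did not pass the test in either. In total-sRNA, dme-miR-277-3p had 25573, 25512 and 30078 RPM in dora lines 1, 2 and 3, each above every WT line (log2 1.71 ± 0.17, adjusted p = 9.55e-05). dme-miR-34-5p had 38522, 35881 and 46352 RPM in dora lines, again above every WT line (log2 0.77 ± 0.18, adjusted p = 0.0172). dme-miR-317-3p had 24988, 23851 and 28581 RPM, overlapping the WT lines (log2 0.11 ± 0.16, 95% interval -0.27 to 0.48, adjusted p = 0.719). Thus 2 of the 3 were called as increased where 17% of the 100 miRNAs tested were, and the interval of dme-miR-317-3p excluded a change as large as that of dme-miR-277-3p. The call of dme-miR-34-5p did not survive leaving out WT line 1 (log2 0.80, adjusted p = 0.0564) or WT line 3 (log2 0.81, adjusted p = 0.0795). Scaling to all miRNA reads shifted the median of all miRNAs by -0.16 and the split from 17 increased and 10 decreased to 12 and 15. With counts scaled to the added standards, dme-miR-34-5p was log2 0.64 (adjusted p = 0.00668), beside 1.58 for dme-miR-277-3p and -0.02 for dme-miR-317-3p.

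In Ago1-IP the same 2 miRNAs were called, with smaller fitted standard errors. dme-miR-277-3p had 22394, 19266 and 24119 RPM in dora lines, against no more than 3812 RPM in WT lines, 5.79-fold higher (log2 2.53 ± 0.11, adjusted p = 2.07e-06). dme-miR-34-5p had 36518, 35564 and 37310 RPM in dora lines, above a highest WT line of 20410 RPM, 1.86-fold higher (log2 0.89 ± 0.08, adjusted p = 0.00012). dme-miR-317-3p had 39319, 39701 and 43373 RPM in dora lines, of which the lowest lay below the highest WT line (log2 0.08 ± 0.08, 95% interval -0.12 to 0.28, adjusted p = 0.435). In this comparison 30.1% of the 93 miRNAs tested were called as increased and 23.7% as decreased. Scaling to the study's cohort of Ago1-enriched miRNAs without the arms of this cluster moved the median of all miRNAs by 0.31 on the log2 scale, the split of calls to 37 increased and 7 decreased from 28 and 22, and dme-miR-317-3p to log2 0.39 (adjusted p = 0.0114), so that its size and its call, though not its direction, depended on which miRNAs were taken as the reference.

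In lines without Hen1 the loss of Dora gave the same picture in total-sRNA. dme-miR-277-3p had 5928, 3551 and 6436 RPM in hen1 lines and 17957, 17741 and 19690 RPM in lines lacking hen1 and dora, 3.20-fold higher (log2 1.68 ± 0.19, adjusted p = 1.14e-07). dme-miR-34-5p had 16938, 16575 and 13959 RPM in hen1 lines and 29973, 25528 and 33632 RPM upon loss of Dora, 1.74-fold higher (log2 0.80 ± 0.13, adjusted p = 4.61e-05). dme-miR-317-3p had 22003, 21077 and 19459 RPM against 22535, 18729 and 26627 RPM (log2 0.0073 ± 0.1375, 95% interval -0.28 to 0.29, adjusted p = 0.977). So 2 of 3 were again called where 16.7% of 90 miRNAs were called as increased, and hen1 line 2 stood lowest for dme-miR-277-3p. Scaling to the Ago1 cohort shifted the median by 0.27 and the split from 15 increased and 3 decreased to 26 and 1. The effect of losing Dora did not differ detectably between the Hen1 backgrounds for any of the 3, the interaction being -0.03 ± 0.29 for dme-miR-277-3p (95% interval -0.65 to 0.59), 0.02 ± 0.22 for dme-miR-34-5p (-0.44 to 0.49) and -0.10 ± 0.21 for dme-miR-317-3p (-0.56 to 0.35), where 3.33% of miRNAs tested were called in either direction.

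**Figure D3:**
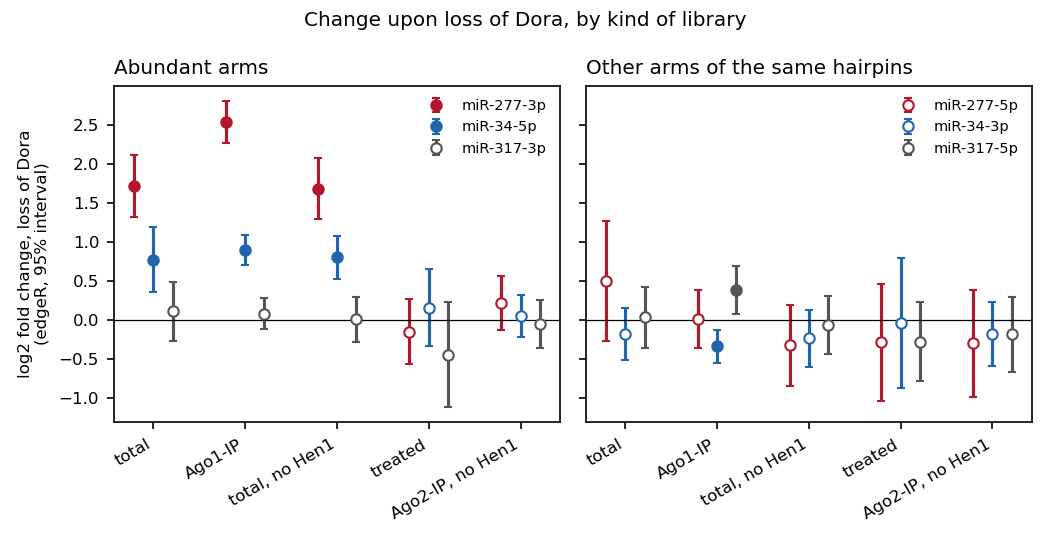
Log2 fold change upon loss of Dora, fitted by edgeR with 95% intervals (3 lines against 3), for the abundant arms (left) and the other arms of the same hairpins (right) in 5 kinds of library; filled points have an adjusted p under 0.05. dme-miR-277-3p and dme-miR-34-5p are filled in total-sRNA, Ago1-IP and total-sRNA without Hen1, and intervals of all 6 arms include 0 in treated and Ago2-IP libraries.

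No other arm was called as increased where its partner was. dme-miR-277-5p had 294, 406 and 329 RPM in WT total-sRNA and 341, 315 and 604 RPM in dora lines (log2 0.50 ± 0.33, 95% interval -0.26 to 1.26, adjusted p = 0.303). That interval leaves room for a rise. In Ago1-IP it was level (log2 0.01 ± 0.16, 95% interval -0.36 to 0.38, adjusted p = 0.951), and in total-sRNA without Hen1 it was log2 -0.33 ± 0.25 (adjusted p = 0.362). dme-miR-34-3p had 1918, 1924 and 1789 RPM in WT Ago1-IP and 1725, 1457 and 1517 RPM in dora lines, a decrease of 1.27-fold (log2 -0.34 ± 0.09, adjusted p = 0.0177), and did not pass the test in total-sRNA with Hen1 (log2 -0.18 ± 0.14, adjusted p = 0.379), although its RPM was lower in every dora line than in every WT line there, or without (log2 -0.23 ± 0.18, adjusted p = 0.362). dme-miR-317-5p rose 1.31-fold in Ago1-IP, from between 47.9 and 54.0 RPM to between 65.7 and 77.2 RPM (log2 0.39 ± 0.13, adjusted p = 0.0401), with log2 values of 0.03 ± 0.17 and -0.07 ± 0.18 in total-sRNA with and without Hen1. Both Ago1-IP calls were marginal, since that of dme-miR-34-3p was lost without any of 4 libraries, WT line 1, 2 or 3 or dora line 2 (log2 -0.38 to -0.29, adjusted p = 0.0564 to 0.0762), and vanished with the cohort scaling (log2 -0.03). That of dme-miR-317-5p was lost without any of 5 libraries, all but WT line 1 (log2 0.33 to 0.43, adjusted p = 0.058 to 0.117). Of 3 other arms, then, none was called in either total-sRNA comparison, by edgeR or by DESeq2 and also at an unadjusted p under 0.05, and in Ago1-IP 1 rose and 1 fell. The exception was dme-miR-277-5p without Hen1, which was called as decreased when hen1 line 2 was left out (log2 -0.55, adjusted p = 0.0483). Among all miRNAs tested in total-sRNA, 27 of 100 with Hen1 and 18 of 90 without were called in either direction by edgeR. An unadjusted p under 0.05 was found for 36 and 29 of them. In Ago1-IP 30.1% of all miRNAs tested were called as increased and 23.7% as decreased.

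Because the arms of a hairpin are counted in the same library, their ratio does not depend on scaling. In total-sRNA there were 30.5, 21.04 and 32.7 reads of dme-miR-277-3p for each read of dme-miR-277-5p in WT lines and 74.9, 80.9 and 49.8 in dora lines, a ratio 2.43-fold higher, and in Ago1-IP the ratio went from between 15.2 and 18.6 to between 90.4 and 111, 5.81-fold higher. For mir-34 the ratio of dme-miR-34-5p to dme-miR-34-3p was 10.9, 9.52 and 9.97 in WT total-sRNA and 18.98, 17.1 and 22.1 in dora lines, 1.91-fold higher, 2.36-fold higher in Ago1-IP and 2.05-fold higher in total-sRNA without Hen1. The ratio of dme-miR-317-3p to dme-miR-317-5p was 65.2, 57.1 and 61.4 in WT total-sRNA and 59.6, 60.4 and 71.9 in dora lines, with overlap. The groups were thus apart for mir-277 and mir-34 in these 3 kinds of library, and by less in Ago2-IP, where the ratio was 1.41-fold higher for mir-277 and 1.16-fold higher for mir-34 upon loss of Dora. For mir-317 they were apart in Ago1-IP, where the ratio was 0.81 of that in WT, and in no other kind, and in treated libraries all 3 ratios overlapped. Each ratio that was apart had a two-sided exact permutation p of 0.1, the smallest that 3 lines against 3 allow, and 0.167 after Benjamini-Hochberg adjustment over the 15 arm ratios tested. How often the arm ratios of other hairpins were apart was not counted.

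The ratios between members gave the same order without any scaling. For each read of dme-miR-317-3p, WT total-sRNA held 0.34, 0.33 and 0.37 reads of dme-miR-277-3p and dora libraries held 1.02, 1.07 and 1.05, so that these miRNAs, 0.34 to 1 in WT cells, came level upon loss of Dora. In Ago1-IP the same ratio rose 5.47-fold, from between 0.079 and 0.11 to between 0.49 and 0.57, and without Hen1 it rose 3.34-fold. The ratio of dme-miR-34-5p to dme-miR-317-3p rose 1.58-fold in total-sRNA, from a mean of 0.99 to 1.56, 1.76-fold in Ago1-IP and 1.74-fold without Hen1, and that of dme-miR-277-3p to dme-miR-34-5p rose 1.93-fold, 3.11-fold and 1.92-fold. All 9 of these comparisons had groups that were apart (two-sided exact permutation p = 0.1 each, the smallest possible, and 0.167 after adjustment over 15 ratios). In treated and Ago2-IP libraries all 6 overlapped, with exact permutation p from 0.2 to 1. The 3 ratios are linked, since any 2 of them set the remaining 1. How often other pairs of miRNAs were apart was not counted. By edgeR 27% of miRNAs were called in either direction in total-sRNA, 53.8% in Ago1-IP and 20% in total-sRNA without Hen1.

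**Figure D4:**
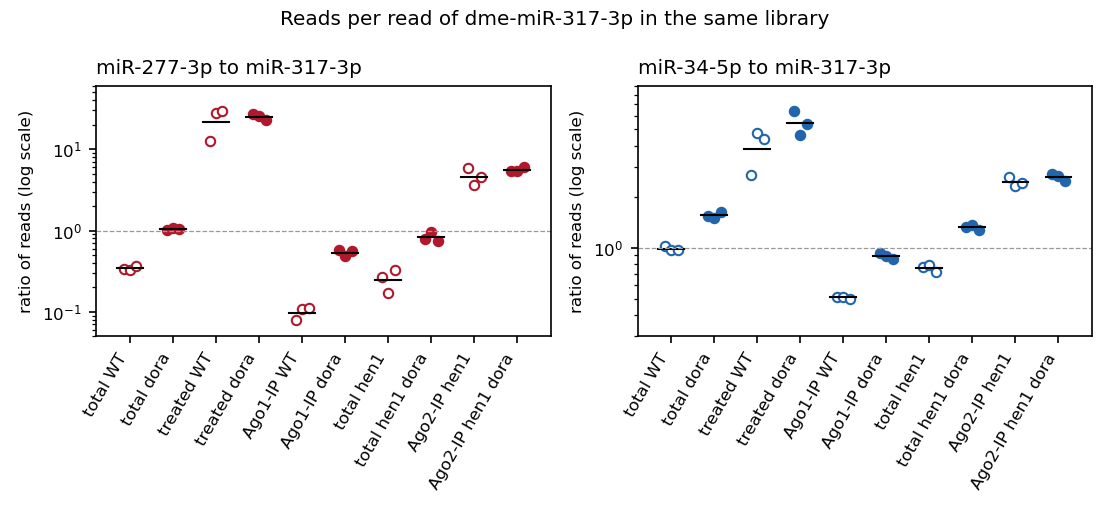
Reads of dme-miR-277-3p (left) and dme-miR-34-5p (right) per read of dme-miR-317-3p in the same library, on log axes; points are libraries, open with Dora and filled without, bars are geometric means of 3 and the dashed line marks equal reads. Filled and open points are apart in total-sRNA, Ago1-IP and total-sRNA without Hen1 and overlap in treated and Ago2-IP libraries; dme-miR-277-3p reaches the dashed line in dora total-sRNA (1.02 to 1.07).

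In the Ago2-bound fractions none of the 3 miRNAs was called upon loss of Dora. Treated dora lines 1, 2 and 3 had 44187, 33853 and 30486 RPM of dme-miR-277-3p, spanning the treated WT lines (log2 -0.15 ± 0.19, 95% interval -0.56 to 0.26, adjusted p = 0.721). The changes were log2 0.16 ± 0.22 for dme-miR-34-5p (-0.33 to 0.65) and -0.44 ± 0.30 for dme-miR-317-3p (-1.11 to 0.22). Without dora line 1, in which markers dominated, the 3 values were -0.24, -0.02 and -0.48. The value of dme-miR-317-3p rested on WT line 1, without which it was log2 -0.0014 (adjusted p = 0.995). Across all miRNAs 4.08% of 98 were called in either direction. In Ago2-IP, dme-miR-277-3p had 27806, 24627 and 31933 RPM upon loss of Dora, overlapping hen1 lines (log2 0.22 ± 0.16, 95% interval -0.13 to 0.56, adjusted p = 0.512). The other changes there were log2 0.05 ± 0.12 for dme-miR-34-5p (-0.21 to 0.32) and -0.06 ± 0.14 for dme-miR-317-3p (-0.36 to 0.25), where 1.01% of 99 miRNAs were called. In both comparisons 0 of 3 had an unadjusted p under 0.05, by edgeR or by DESeq2. Among all miRNAs tested by edgeR, 14 of 98 in treated and 20 of 99 in Ago2-IP libraries had an unadjusted p under 0.05. In both, the interval of dme-miR-277-3p stayed below a 1.5-fold increase, so a rise as large as that in total-sRNA lay outside it.

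The difference between kinds of library was itself tested with an interaction term. Treated and Ago1-IP libraries were again set against total-sRNA of the earlier study. For dme-miR-277-3p the effect of losing Dora was smaller after periodate than in total-sRNA by 3.56-fold (log2 -1.83 ± 0.23, adjusted p = 7.09e-05, and -1.97 without the marker-dominated library), where 10.1% of miRNAs were called as smaller. It was smaller in Ago2-IP than in total-sRNA without Hen1 by 2.93-fold (log2 -1.55 ± 0.27, adjusted p = 0.00031), where 15.5% were called as smaller. It was larger in Ago1-IP than in total-sRNA by 1.80-fold (log2 0.84 ± 0.20, adjusted p = 0.0174), where 8.05% were called as larger, although the call was lost with TMM factors set over both kinds of library (log2 0.65, adjusted p = 0.184) and without a filter on low values (log2 0.60, adjusted p = 0.597). dme-miR-277-3p was the 1 member that passed in all 3 of these tests.

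dme-miR-34-5p also responded less in Ago2-IP than in total-sRNA (log2 -0.82 ± 0.18, adjusted p = 0.00298, a call lost without a filter on low values, with log2 -0.70 and adjusted p = 0.0604), and its difference after periodate did not pass (log2 -0.59 ± 0.27, adjusted p = 0.327). Its effect in Ago1-IP was not distinguishable from that in total-sRNA (log2 0.15 ± 0.18, 95% interval -0.25 to 0.54). dme-miR-317-3p passed in none of these tests, with interactions of -0.0022 ± 0.1630 for Ago1-IP, -0.54 ± 0.38 for treated and -0.14 ± 0.19 for Ago2-IP libraries.

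Loss of Hen1 was examined in total-sRNA, where the batch in which hen1 libraries were made cannot be told apart from the genotype. With Dora present, dme-miR-277-3p was 1.47-fold lower in hen1 lines than in WT lines (log2 -0.55 ± 0.19, adjusted p = 0.049) and dme-miR-34-5p 1.39-fold lower (log2 -0.48 ± 0.13, adjusted p = 0.0167), while dme-miR-317-3p gave log2 -0.10 ± 0.11 (adjusted p = 0.481), against 22.7% of 97 miRNAs called as decreased. Scaling moved this comparison: with all miRNA reads the median shifted by -0.28, the split went from 19 increased and 22 decreased to 10 and 40, and dme-miR-317-3p was called too (log2 -0.39). Both calls were fragile: that of dme-miR-277-3p was lost in 5 of 6 fits that left out a line and in 3 others, and that of dme-miR-34-5p without WT line 1 or 3 (adjusted p = 0.0667 and 0.0688). Without hen1 line 2 the decrease of dme-miR-277-3p shrank to log2 -0.29. By northern blot, the paper reported a decrease of miR-277 in hen1 cells of similar size to that in its sequencing. In dora backgrounds loss of Hen1 gave log2 -0.51 ± 0.17 (adjusted p = 0.0672), -0.40 ± 0.20 (0.165) and -0.15 ± 0.19 (0.585) for dme-miR-277-3p, dme-miR-34-5p and dme-miR-317-3p, none of which passed where 10.1% of 99 miRNAs were called as decreased. That of dme-miR-277-3p passed with DESeq2 (log2 -0.50, adjusted p = 0.0322), with all miRNA reads or the study cohort as scale (log2 -0.55 and -0.57, adjusted p = 0.0152 each), and without dora line 1 (log2 -0.62, adjusted p = 0.0453) or dora line 3 (log2 -0.33, adjusted p = 0.0256).

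Set beside the miRNAs that the study named Dora-sensitive, a set of 10 that includes dme-miR-277-3p and was itself chosen on these total-sRNA samples, dme-miR-277-3p lay at the low end. The 9 others, of which 8 were tested in total-sRNA, had log2 changes from 1.94 to 4.04 (median 2.75) upon loss of Dora and from 2.14 to 5.72 (median 3.41) in Ago1-IP, where all 9 were tested. The 1.71 of dme-miR-277-3p lay below that range in total-sRNA and its 2.53 within it in Ago1-IP, beside medians of -0.02 and -0.06 over all miRNAs tested. dme-miR-34-5p, with 0.77 and 0.89, lay below all of them. In the paper miR-34 missed the stringent threshold for that set. From a northern blot and its sequencing, the paper proposes that miR-34 might also undergo target-directed degradation. Both dme-miR-34-5p and dme-miR-317-3p, with dme-miR-34-3p, are among the 15 Ago1-enriched miRNAs to which the study scaled siRNA counts of total-sRNA, Ago1-IP and hen1 libraries. The study required that cohort to be unchanged upon loss of Dora only in aggregate. The other 12 of that cohort, all tested in total-sRNA, had a median log2 change of -0.04 (range -0.55 to 0.67, 0 called as increased and 1 as decreased), so dme-miR-34-5p lay above that range; in Ago1-IP they had a median of -0.26 (range -0.81 to 0.53, 2 called as increased and 4 as decreased).

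Values in total-sRNA upon loss of Dora are given beside these for the main arms of 3 other clusters, with no test of a difference between members. In the cluster of miR-9c, dme-miR-9c-5p and dme-miR-9b-5p rose in total-sRNA (log2 1.94 and 2.46) and dme-miR-306-5p and dme-miR-79-3p did not pass the test (log2 -0.32 and -0.21). In the cluster of miR-12, dme-miR-12-5p rose by log2 4.03, dme-miR-283-5p by 1.14 and dme-miR-304-5p was at 0.62 (adjusted p = 0.134). In the cluster of miR-275 both dme-miR-275-3p and dme-miR-305-5p rose, by 0.92 and 0.51.

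Over the 10 groups, the miRNAs whose profile lay closest to each member were not the other members. Likeness was the root-mean-square difference of mean log2(RPM + 1) after centring each miRNA on its own mean, over 82 other miRNAs with at least 50 RPM on average. The miRNAs nearest to dme-miR-277-3p were dme-miR-9c-5p (0.61), dme-miR-263a-5p (0.67) and dme-miR-996-3p (0.68), of which the first and the last belong to the Dora-sensitive set. Those nearest to dme-miR-34-5p were dme-miR-184-3p (0.50), its own other arm dme-miR-34-3p (0.57) and dme-miR-276a-3p (0.57), and those nearest to dme-miR-317-3p were dme-miR-14-3p (0.31), dme-miR-9b-3p (0.36) and dme-miR-2b-3p (0.36). Between members the difference was 1.04 for dme-miR-34-5p and dme-miR-317-3p, 1.58 for dme-miR-277-3p and dme-miR-34-5p and 2.6 for dme-miR-277-3p and dme-miR-317-3p, so that dme-miR-317-3p ranked 75 among the 82 in likeness to dme-miR-277-3p.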

How the data were processed

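The authors trimmed and quality-filtered reads and matched their first 19 nucleotides to known miRNAs, and deposited the counts of reads per miRNA in 5 tables of 314 entries, 4 of which are size markers or added standards and were left out of tests and library sizes. Reads trimmed or tailed at the 3′ end are thus pooled with the full-length miRNA. Columns were assigned to groups from the labels, and 0 were left unmapped. The Ago2-IP columns carry a genotype and a number, but the same names are titles of total-sRNA samples of the hen1 backgrounds. Only the genotype was therefore taken from them. Tables of siRNA reads and siRNA-locus transcripts were not used.

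miRNAs with a mean over 5 RPM in the control group, and a coefficient of variation not beyond 1.5 interquartile ranges of the quartiles in either group, were tested with edgeR 4.0.16 (R 4.3.3). TMM factors were used between genotypes, within each kind of library for interactions, and all miRNA reads between kinds of library. DESeq2 1.42.0 was the alternative. Ratios within a library were compared with exact permutation tests in scipy 1.17.1, with 0.5 added to each count for arms. The count tests were tested on simulated data.

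Libraries of the same clone number deviated together where WT total-sRNA was compared with treated (r = 0.235 to 0.634 across miRNAs) or Ago1-IP libraries (0.409 to 0.693). Those numbers were taken to pair libraries. The fits of treated and Ago1-IP libraries against total-sRNA, and the interactions, nevertheless took libraries as independent. Clone number as a replicate block was fitted as an alternative, except for Ago2-IP. Where dora lines with and without hen1 were compared, r was 0.137 to 0.31. These were separately edited clones, so a shared number does not pair lines there. In the other comparisons at least 1 correlation was under 0.1.

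The named genes are the members, their other arms, and for each member the 3 miRNAs most alike in profile; lists are given by counts, range and median, and members of the other clusters by value. The members and lists were chosen with earlier results of these data known. Comparisons that use the same control libraries are not independent of each other.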

Additional observations from a re-analysis of the deposited data

Results flagged for a closer look

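The effect of losing Dora on dme-miR-277-3p differed between kinds of library in 3 of 4 tests of the difference, all by an interaction term in edgeR over the miRNAs tested. It was larger in Ago1-IP than in total-sRNA (log2 0.845, adjusted p = 0.0174; higher in 3 of 3 dora lines than in every WT line in both), a call lost without a filter on low values (log2 0.60, adjusted p = 0.597) and with TMM over both kinds of library (log2 0.65, adjusted p = 0.184). It was smaller after periodate than in total-sRNA (log2 -1.83, adjusted p = 7.09e-05) and smaller in Ago2-IP than in total-sRNA without Hen1 (log2 -1.553, adjusted p = 0.00031). For dme-miR-34-5p it was smaller in Ago2-IP than in total-sRNA without Hen1 (log2 -0.8218, adjusted p = 0.00298), a call lost without a filter on low values (log2 -0.70, adjusted p = 0.0604). With 3 libraries a group, no single library could be examined for standing apart from its group by a range test.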

How the results depend on the processing

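dme-miR-277-3p and dme-miR-34-5p rose upon loss of Dora in total-sRNA, Ago1-IP and total-sRNA without Hen1 under every alternative tried, apart from the calls of dme-miR-34-5p lost in total-sRNA without WT line 1 or 3. No reversal concerned a value that had passed the test, and none passed it after turning. Where numbers were taken to pair libraries, the replicate block changed no call of the 3 miRNAs. No paired analysis was made for Ago2-IP, whose column numbers were not used as line numbers. The cause of each change given here was not tested. Values are log2 changes unless they are numbers called.

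Without a filter on low values, for loss of Dora in treated libraries, dme-miR-34-3p was 0.085 in place of -0.038, and for loss of Dora in total-sRNA without Hen1, dme-miR-317-5p was 0.0040 in place of -0.067, and for loss of Hen1, dme-miR-277-3p was -0.24 in place of -0.55 and dme-miR-34-5p was -0.16 in place of -0.48 and dme-miR-317-3p was 0.22 in place of -0.10. With the same change, for loss of Hen1 without Dora, the number called was 11 in place of 17, and for the Ago1-IP interaction, dme-miR-277-3p was 0.60 in place of 0.84 and dme-miR-34-5p was -0.084 in place of 0.15 and the number called was 5 in place of 9, and for the Ago2-IP interaction, dme-miR-34-5p was -0.70 in place of -0.82 and the number called was 8 in place of 14. By that choice again, for the Hen1 interaction, dme-miR-34-5p was -0.017 in place of 0.023 and the number called was 0 in place of 3. With the filter on mean RPM alone, for loss of Dora in total-sRNA, dme-miR-317-5p was -0.0032 in place of 0.034, and for loss of Dora in treated libraries, dme-miR-277-3p was 0.0051 in place of -0.15 and dme-miR-34-3p was 0.10 in place of -0.038 and the number called was 0 in place of 4, and for loss of Dora in total-sRNA without Hen1, dme-miR-317-3p was -0.016 in place of 0.0073 and the number called was 11 in place of 18. With that filter, for loss of Hen1, dme-miR-277-3p was -0.49 in place of -0.55, and for the Ago1-IP interaction, dme-miR-317-3p was 0.018 in place of -0.0022, and for the Hen1 interaction, the number called was 0 in place of 3. With DESeq2, for loss of Dora in Ago2-IP, the number called was 6 in place of 1, and for loss of Dora in total-sRNA without Hen1, dme-miR-317-3p was -0.0043 in place of 0.0073, and for Ago1-IP against total-sRNA, dme-miR-34-5p was -0.16 in place of -0.53. Under the same setting, for Ago2-IP against total-sRNA, dme-miR-277-5p was -0.31 in place of 0.86, and for loss of Hen1, dme-miR-277-3p was -0.46 in place of -0.55, and for loss of Hen1 without Dora, dme-miR-277-3p was -0.50 in place of -0.51 and the number called was 29 in place of 17. By that choice again, for the Hen1 interaction, the number called was 6 in place of 3. With clone number as a replicate block, for loss of Dora in treated libraries, dme-miR-34-3p was 0.036 in place of -0.038 and the number called was 0 in place of 4, and for loss of Dora in Ago1-IP, dme-miR-277-5p was -0.0051 in place of 0.012, and for loss of Dora in total-sRNA without Hen1, dme-miR-317-3p was -0.0060 in place of 0.0073. Under the same setting, for the Ago1-IP interaction, dme-miR-317-3p was 0.0092 in place of -0.0022, and for the Hen1 interaction, dme-miR-277-3p was 0.029 in place of -0.034 and the number called was 5 in place of 3. With library sizes set to all miRNA reads, for loss of Dora in total-sRNA, dme-miR-317-3p was -0.079 in place of 0.11 and dme-miR-317-5p was -0.14 in place of 0.034, and for loss of Dora in treated libraries, dme-miR-34-3p was 0.091 in place of -0.038 and the number called was 0 in place of 4, and for loss of Dora in Ago2-IP, dme-miR-317-3p was 0.0072 in place of -0.056 and the number called was 2 in place of 1. Under the same setting, for loss of Dora in total-sRNA without Hen1, dme-miR-317-5p was 0.046 in place of -0.067, and for loss of Hen1, dme-miR-317-3p was -0.39 in place of -0.10, and for loss of Hen1 without Dora, dme-miR-277-3p was -0.55 in place of -0.51. By that choice again, for the Ago1-IP interaction, dme-miR-317-3p was 0.24 in place of -0.0022, and for the Hen1 interaction, dme-miR-277-3p was 0.28 in place of -0.034 and dme-miR-317-3p was 0.20 in place of -0.10 and the number called was 10 in place of 3. With the study's scaling cohort, for loss of Dora in total-sRNA, dme-miR-317-5p was -0.031 in place of 0.034, and for loss of Dora in treated libraries, the number called was 0 in place of 4, and for loss of Dora in Ago1-IP, dme-miR-317-3p was 0.39 in place of 0.081. Under the same setting, for loss of Dora in Ago2-IP, the number called was 2 in place of 1, and for loss of Dora in total-sRNA without Hen1, dme-miR-34-3p was 0.038 in place of -0.23 and dme-miR-317-5p was 0.20 in place of -0.067, and for loss of Hen1, dme-miR-317-3p was -0.46 in place of -0.10. By that choice again, for loss of Hen1 without Dora, dme-miR-277-3p was -0.57 in place of -0.51. With the added standards as scale, for loss of Dora in total-sRNA, dme-miR-317-3p was -0.022 in place of 0.11 and dme-miR-317-5p was -0.077 in place of 0.034 and the number called was 17 in place of 27, and for loss of Dora in total-sRNA without Hen1, dme-miR-317-5p was 0.048 in place of -0.067. With TMM between kinds of library, for Ago1-IP against total-sRNA, dme-miR-34-5p was -0.19 in place of -0.53, and for Ago2-IP against total-sRNA, dme-miR-277-5p was -0.55 in place of 0.86. With TMM over both kinds of library, for the Ago1-IP interaction, dme-miR-277-3p was 0.65 in place of 0.84 and dme-miR-34-5p was -0.045 in place of 0.15, and for the treated interaction, dme-miR-317-3p was 0.012 in place of -0.54, and for the Ago2-IP interaction, dme-miR-317-3p was 0.018 in place of -0.14. Under the same setting, for the Hen1 interaction, dme-miR-34-5p was -0.00061 in place of 0.023.

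When each library was left out in turn, for loss of Dora in total-sRNA, dme-miR-34-5p ranged from 0.64 to 0.92 and dme-miR-317-5p ranged from -0.0073 to 0.13 and the number called ranged from 11 to 28 and the log2 ratio of dme-miR-317-3p to dme-miR-317-5p ranged from -0.027 to 0.11, and for loss of Dora in treated libraries, dme-miR-34-5p ranged from -0.017 to 0.27 and dme-miR-34-3p ranged from -0.32 to 0.42 and the number called ranged from 0 to 8 and the log2 ratio of dme-miR-277-3p to dme-miR-317-3p ranged from -0.20 to 0.43 and the log2 ratio of dme-miR-277-3p to dme-miR-277-5p ranged from -0.15 to 0.38 and the log2 ratio of dme-miR-34-5p to dme-miR-34-3p ranged from -0.18 to 0.39 and the log2 ratio of dme-miR-317-3p to dme-miR-317-5p ranged from -0.24 to 0.20. For loss of Dora in Ago1-IP, dme-miR-277-5p ranged from -0.12 to 0.14, and for loss of Dora in Ago2-IP, dme-miR-317-3p ranged from -0.13 to 0.020 and dme-miR-277-5p ranged from -0.55 to 0.0093 and dme-miR-317-5p ranged from -0.36 to 0.00032 and the number called ranged from 1 to 8. For loss of Dora in total-sRNA without Hen1, dme-miR-317-3p ranged from -0.086 to 0.19 and dme-miR-317-5p ranged from -0.11 to 0.10, and for Ago2-IP against total-sRNA, dme-miR-34-5p ranged from -0.48 to -0.31. For loss of Hen1, dme-miR-277-3p ranged from -0.69 to -0.29 and dme-miR-34-5p ranged from -0.48 to -0.36 and the number called ranged from 27 to 39, and for loss of Hen1 without Dora, dme-miR-277-3p ranged from -0.62 to -0.33 and dme-miR-317-3p ranged from -0.25 to 0.027 and the number called ranged from 11 to 38. For the Ago1-IP interaction, dme-miR-317-3p ranged from -0.066 to 0.24, and for the Ago2-IP interaction, dme-miR-317-3p ranged from -0.23 to 0.0027. For the Hen1 interaction, dme-miR-277-3p ranged from -0.17 to 0.20 and dme-miR-34-5p ranged from -0.10 to 0.25 and dme-miR-317-3p ranged from -0.21 to 0.082 and the number called ranged from 0 to 5. Outside these changes of sign or call, dme-miR-317-3p ranged from -0.65 to -0.0014 for loss of Dora in treated libraries. Shallow treated and Ago2-IP libraries, 3 lines a group and relative scaling limit these comparisons, and exact tests of ratios could not go below 0.1.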
